A study of Mus musculus with 2 samples.

Results

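Contacts within the intermediate VH section of Igh, the mouse immunoglobulin heavy chain locus, are those between 2 fragments that both lie in chr12:115290001-115820000 of the mm9 build, a stretch of 530 kb. Members were chosen by position alone: each pairs a forward with a reverse fragment, both with midpoints in that stretch and at least 10 kb apart. The section held 48 probed HindIII fragments, 22 forward and 26 reverse, and 532 member pairs of the 10415 pairs of the locus at that spacing. Contacts were measured by 5C, in which crosslinked chromatin is cut with HindIII and ligated, and junctions are then amplified with primers for chosen fragments, so that a count is the number of sequenced junctions of 1 forward and 1 reverse fragment. Both libraries came from splenic B cells of the C57Bl/6 strain, freed of CD43+ cells with magnetic beads and kept in culture for 40 hours with LPS+IL4. They are 2 biological replicates of 1 group, per the series description, with no untreated cells, no other genotype and no other stage beside them. How many mice each library came from is not given in the sources used here. Differences between replicates are therefore the only measure of error. No comparison of conditions was possible, and a comparison of regions within the 2 replicates cannot give an exact two-sided p below 0.5.

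The heavy chain locus carries its variable (V) gene segments in a long array that is joined to the D and J segments by recombination in developing B cells. Large scale folding of the array is known to bring V segments that lie far apart on the chromosome near the D and J segments in those cells. Splenic B cells have finished that recombination, and LPS with IL4 drives them to switch their constant region to IgG1 and IgE. The intermediate V families lie between the proximal Ighv5 and Ighv2 genes and the distal Ighv1 genes. In the gene order of the GRCm38.p6 RefSeq table, 53 V genes stand between Ighv5-19 and Ighv1-9, of which 35 are V segments and 18 are pseudogenes. They belong to 15 families, with 8 genes each of Ighv3 and Ighv1, 6 of Ighv6, and 4 each of Ighv7, Ighv9, Ighv10 and Ighv14. Among the smaller families are Ighv11 and Ighv12, known for their use in antibodies of B-1 cells to phosphatidylcholine. That table is on another build than the contact tables, so no fragment was assigned to a gene. Fragments are named by kind and number, with mm9 positions.

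All 532 pairs of the section had counts in both replicates. The total over the locus was 14503618 counts in replicate 1 and 17658603 in replicate 2, of which 3082248 and 5553647 lay in pairs at least 10 kb apart. Of the latter the section's pairs held 8.31% (95% Wilson interval 8.28 to 8.34) and 9.02% (8.99 to 9.04), while they made up 5.11% of these pairs. With its 40 pairs under 10 kb, the section held 8.14% and 13.0% of all counts for 5.40% of all 10584 pairs. These shares take no account of distance, and the section's pairs lie closer together than those of the whole locus. At 10 kb and beyond the share also rests on few pairs: 3 of them, described further on, held 58.8% and 53.6% of the section's counts. The intervals cover counting error only, since reads without molecular identifiers are not independent molecules. The median pair of the section had 78 counts in replicate 1 and 201.5 in replicate 2, with a range from 1 to 77227 and from 4 to 152580, and the median over all 10415 pairs, which lie farther apart on the whole, was 40 and 71. In replicate 1, 59 pairs had fewer than 10 counts, against 1 in replicate 2, so low contacts were measured less precisely in replicate 1. Fragment lengths had a median of 2439 bp, and 30.3% of the section was probed. The widest unprobed gaps were 53.1 kb between forward 295 and forward 306, 49.9 kb between forward 377 and reverse 398, and 31.7 kb between reverse 348 and reverse 357. The fragment at the far border, forward 415 (chr12:115816276-115822016), has its midpoint in the section but ends beyond it. Pairs just inside the distance limit (5 pairs at 10 to 12 kb) had median counts of 847 and 2242, and those just outside it (7 pairs at 8 to 10 kb) had 1472 and 4455.

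Before the primer correction described further on, contacts within the section had fewer counts than usual for their distance in both replicates. The level of a pair is given here as log2 excess: log2(count + 1) minus a smooth curve of that value on distance, fitted in each replicate over all 10415 pairs, so that 0 is a usual count for the distance. The median over the section was -0.64 in replicate 1 and -0.32 in replicate 2, a mean of -0.48 ± 0.23 (SD, n = 2), beside 0.13 and -0.01 over all pairs. Pairs elsewhere in the locus under 530 kb apart had 0.29 and 0.09. In the section 282 pairs (53.0%) were below 0 in both replicates, against 38.1% of all pairs. Above 0 in both were 144, for which no share over all pairs is given. After primer correction the section's median was -0.17 in replicate 1 and 0.00 in replicate 2.

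Few pairs were strongly raised and many were strongly lowered. At or above 1 in both replicates, that is at 2 or more times the usual count, were 42 pairs of the section (7.89%), whereas 19.9% of all pairs and 23.4% of the 2635 pairs elsewhere under 530 kb passed that limit. At or below -1 in both were 132 pairs (24.8%), against 18.2% of all pairs and 17.1% of those elsewhere under 530 kb. Before the primer correction described further on, the section had a smaller share of high and a larger share of low contacts than the locus. These counts were not tested. After correction the share of low pairs was smaller too, at 3.01% against 4.19% of all pairs. High pairs were then 1.5%, against 5.73%.

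**Figure D1:**
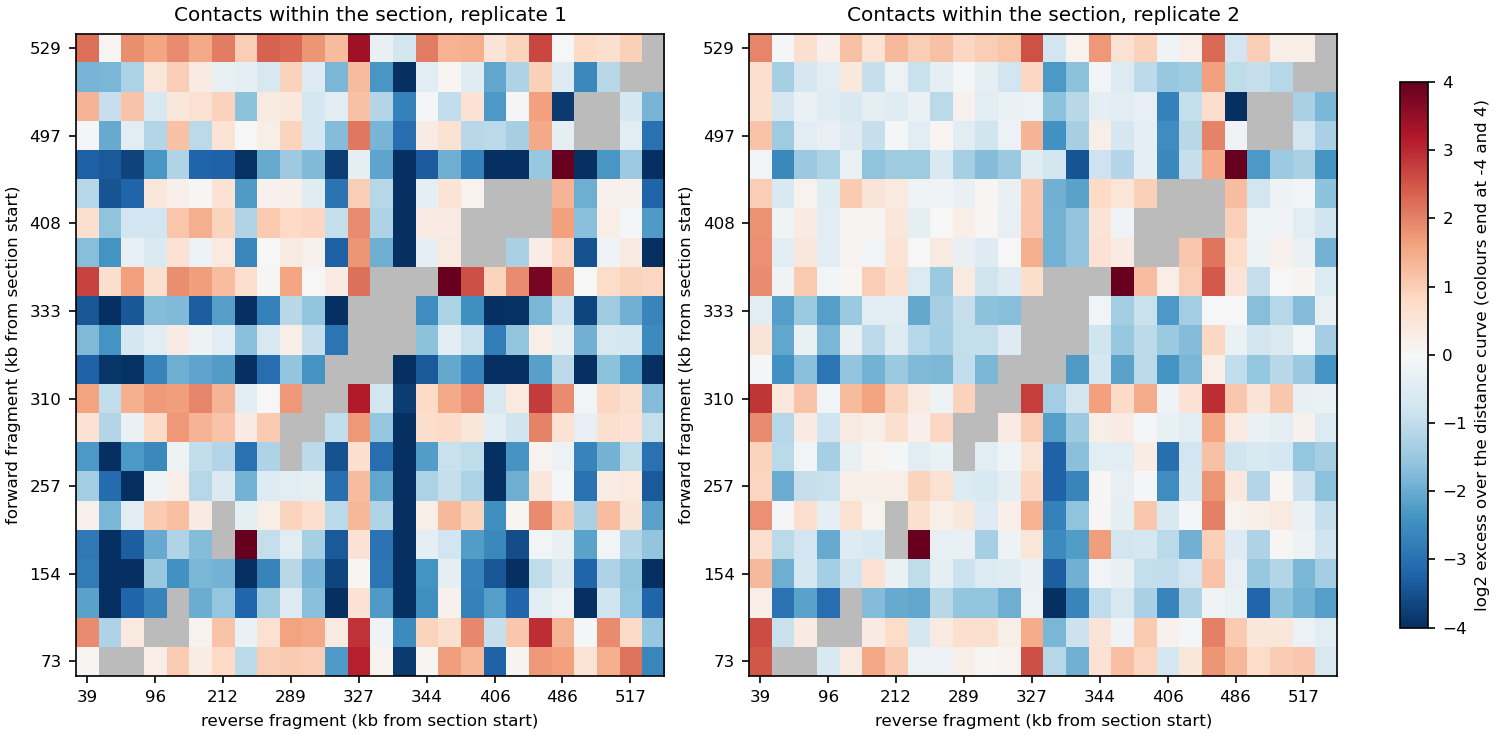
Log2 excess of every pair of the section in replicate 1 (left) and replicate 2 (right). Rows are the 22 forward and columns the 26 reverse fragments in map order, with tick labels in kb from the section's start, red is above and blue below the usual count of the distance, and grey cells are pairs under 10 kb apart. Whole rows and columns are red or blue in both replicates, and 3 single cells stand out, in the rows of forward 306, 346 and 377 at reverse 312, 357 and 398 respectively.

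Before primer correction the shortfall was present in all 5 distance classes and its mean was largest below 100 kb. Between 10 and 50 kb the 75 pairs of the section had median counts of 349 and 872, and the 300 pairs elsewhere 714 and 1390.5. Their log2 excess was lower than elsewhere by 1.04 in replicate 1 and by 0.77 in replicate 2. At 50 to 100 kb, where the section had 101 pairs, median counts were 82 and 298 against 342.5 and 578.5, and the difference in log2 excess was -1.67 and -0.66. It then narrowed to -1.03 and -0.51 at 100 to 200 kb, -0.66 and -0.39 at 200 to 300 kb, and -0.41 and -0.20 at 300 to 530 kb. Averaged over these classes by the number of the section's pairs, the section stood at -0.74 ± 0.34 (SD, n = 2) against pairs elsewhere, or at 0.505 times their level in replicate 1 and 0.706 times in replicate 2. An exact two-sided sign-flip test over the replicates gave p = 0.5, the smallest that n = 2 allows. Both replicates had the same sign in all 5 classes, with the smaller size in replicate 2.

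Counts within the section fell with distance somewhat less steeply than elsewhere. The slope of log10(count + 1) on log10 distance was -0.77 in replicate 1 and -0.88 in replicate 2, a mean of -0.82 ± 0.07 (SD, n = 2). Over all other pairs under 530 kb it was -1.02 and -0.94, a mean of -0.98 ± 0.05. The section's slope was thus the shallower one in each replicate. After correction for primers, described further on, the slopes were -0.81 ± 0.09 in the section and -0.82 ± 0.04 elsewhere, a difference smaller than the spread between replicates.

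The locus was cut into 6 windows of 530 kb end to end. Before primer correction its lowest mean level was in the section, with the next window close to it. The window that follows on the distal side (chr12:115820001-116350000, 130 pairs) had -0.78 and -0.07, a mean of -0.42 ± 0.50. The window before the section (chr12:114760001-115290000, 122 pairs) had -0.16 and 0.00, a mean of -0.08 ± 0.11. In replicate 1 the following window was lower than the section, and in replicate 2 the section was the lowest. The 3 windows farther away had means of 0.65, 0.79 and 0.37. The first of them (chr12:114230001-114760000) held 912 of the 2635 pairs elsewhere under 530 kb. The comparison with pairs elsewhere therefore leans on that window. Before correction the section thus differed from those 3 in the same direction in both replicates (1.09 and 0.21, 0.58 and 1.01, and 0.44 and 0.29). Its order against the window that follows changed between replicates. After correction the section was at -0.17 and 0.00 and the first of the 3 at -0.10 and -0.04, so their order changed too. The others of the 3 stayed above the section in both replicates, at 0.11 and 0.63, and at 0.52 and 0.32.

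**Figure D2:**
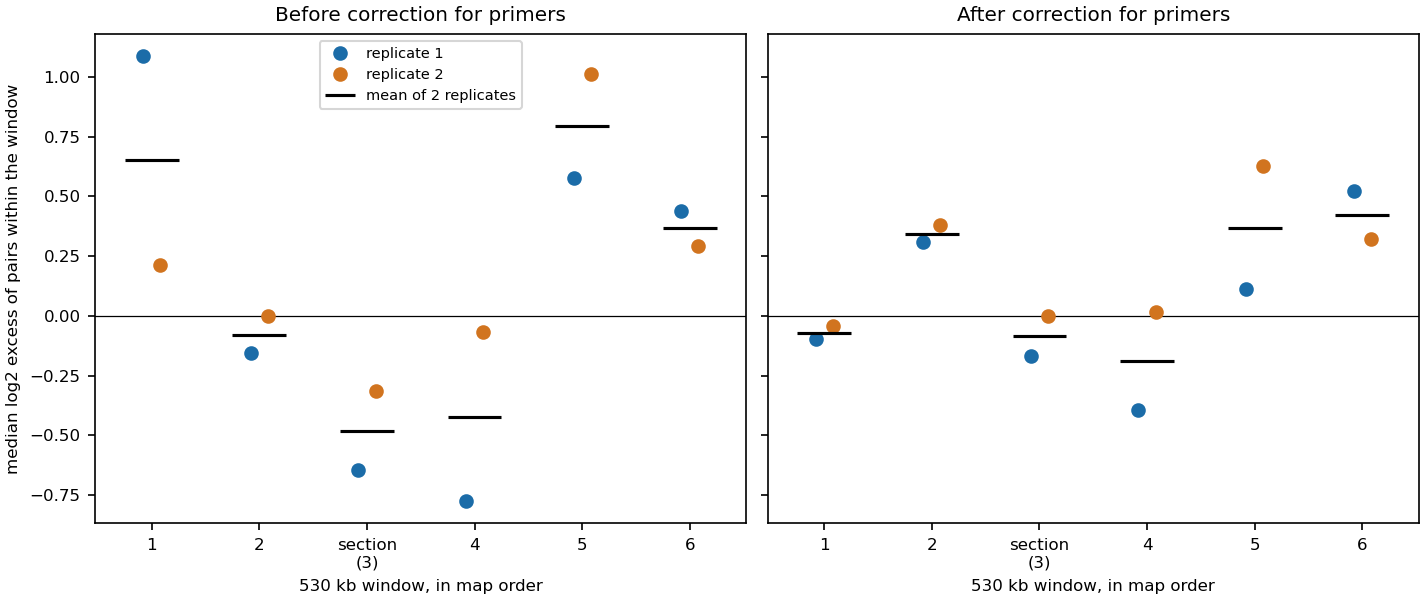
Median log2 excess of pairs with both fragments in the same 530 kb window, for 6 windows in map order, before (left) and after (right) correction for primers. Points are the replicates and bars their mean. Before correction the section (the third window) had the lowest mean at -0.48, and after correction it stood at -0.08, close to the window at -0.07 and above the one at -0.19.

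No pair of the section was called as raised in both replicates. A pair was called when its count exceeded the mean curve of its distance at an adjusted p under 0.01 (upper tail of a Weibull fit to z, Benjamini-Hochberg over all 10415 pairs). Of all pairs 0.24% passed this in both replicates, and 10 of the 2635 pairs elsewhere under 530 kb (0.38%) did. Within the section 2 pairs passed in replicate 1 (0.376%, against 0.432% of all pairs) and 0 in replicate 2 (against 0.374% of all pairs). The call asks for counts far above the mean curve, so a count of 0 does not show that no contact was raised: forward 346 with reverse 374, at 13.9 and 5.43 times the usual count of its distance, had an adjusted p of 0.807 and 0.677 in the Weibull fit. At an unadjusted Weibull p under 0.05, 167 of all 10415 pairs passed in both replicates. In the section the same 3 of 532 pairs passed in each replicate, a smaller share. These are the 3 highest pairs of the section, described next. With a wider smoothing span of 0.6 the count in both was 1. With primers corrected, 2 pairs of the section (0.376%) passed in both replicates, near the 0.307% of all pairs.

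Those 3 pairs stood apart from all other contacts of the section. Together they held 58.8% of its counts at 10 kb and beyond in replicate 1 and 53.6% in replicate 2. Each was at least 67.8 times the usual count of its distance in both replicates, while the next pair by mean, forward 346 with reverse 374, was at log2 excess 3.80 and 2.44.

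The first joins forward 306 (chr12:115498083-115499560) to reverse 312 (chr12:115517402-115521010), 20.4 kb apart, with 77227 and 152580 counts. Its log2 excess was 6.80 and 6.69, a mean of 6.75 ± 0.08 (SD, n = 2). The Weibull adjusted p over all pairs was 0.00115 in replicate 1 and 0.118 in replicate 2, and it was 5.34e-13 and 9.44e-16 after primer correction. Both fragments were otherwise low: the median over their pairs in the section was -1.59 and -0.60 for forward 306 and -1.43 and -0.39 for reverse 312. This pair held 98.3% and 96.7% of the counts of forward 306 in the section at 10 kb and beyond. That leaves out forward 306 with reverse 307, 3.11 kb apart, which had 6781 and 35669 counts. The pairs around it were not raised to a like degree. Forward 308, the next forward fragment, lies closer to reverse 312 and had 849 and 3753 counts with it, a log2 excess of -0.38 and 0.65. Forward 306 with reverse 322, the next reverse fragment, had 134 and 432 counts, or -0.97 and -0.32.

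The next joins forward 346 (chr12:115628291-115630212) to reverse 357 (chr12:115668148-115671981), 40.8 kb apart, and had nearly equal counts in the replicates, 51457 and 53263. Its log2 excess was 7.09 and 6.08, with an adjusted p of 0.00747 in replicate 1 and 0.677 in replicate 2 (Weibull fit, all pairs). Forward 346 was a generally high fragment, with a median of 1.22 and 0.28 in the section. The pair stood at 4.99 and 5.49 after primer correction, where its adjusted p was 0.839 and 0.0461, so it was not called there. It spans the 31.7 kb gap between reverse 348 and reverse 357. Other pairs over that gap had far fewer counts: forward 346 with reverse 365 had 1554 and 1263, still a log2 excess of 2.57 and 1.23, and forward 344 with reverse 357 had 136 and 262.

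The third joins forward 377 (chr12:115723372-115724782) to reverse 398 (chr12:115774724-115776651), which are neighbours among the probed fragments but lie 51.6 kb apart across the 49.9 kb gap. It had 21794 and 62772 counts and a log2 excess of 6.15 and 6.63. The adjusted p of the Weibull fit was 0.585 and 0.677 for counts, and 3.96e-05 and 1.52e-05 after primer correction. Forward 377 was among the 5 lowest fragments of the section, with a median of -2.95 and -1.30. With reverse 401, the next fragment beyond reverse 398, it had 8 and 112 counts, a log2 excess of -4.92 and -2.31. Reverse 398 with forward 402, on its other side at 11.8 kb, had 847 and 2176 counts, or -0.40 and -0.15. Forward 377 with reverse 374 had 300 and 5350 counts, or -1.53 and 1.53, opposite in sign between the replicates. All 3 pairs were thus single cells of the map, the pairs of their neighbouring fragments being below the usual level or raised far less, and 2 of them span the second and the third widest gaps of the section.

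**Figure D3:**
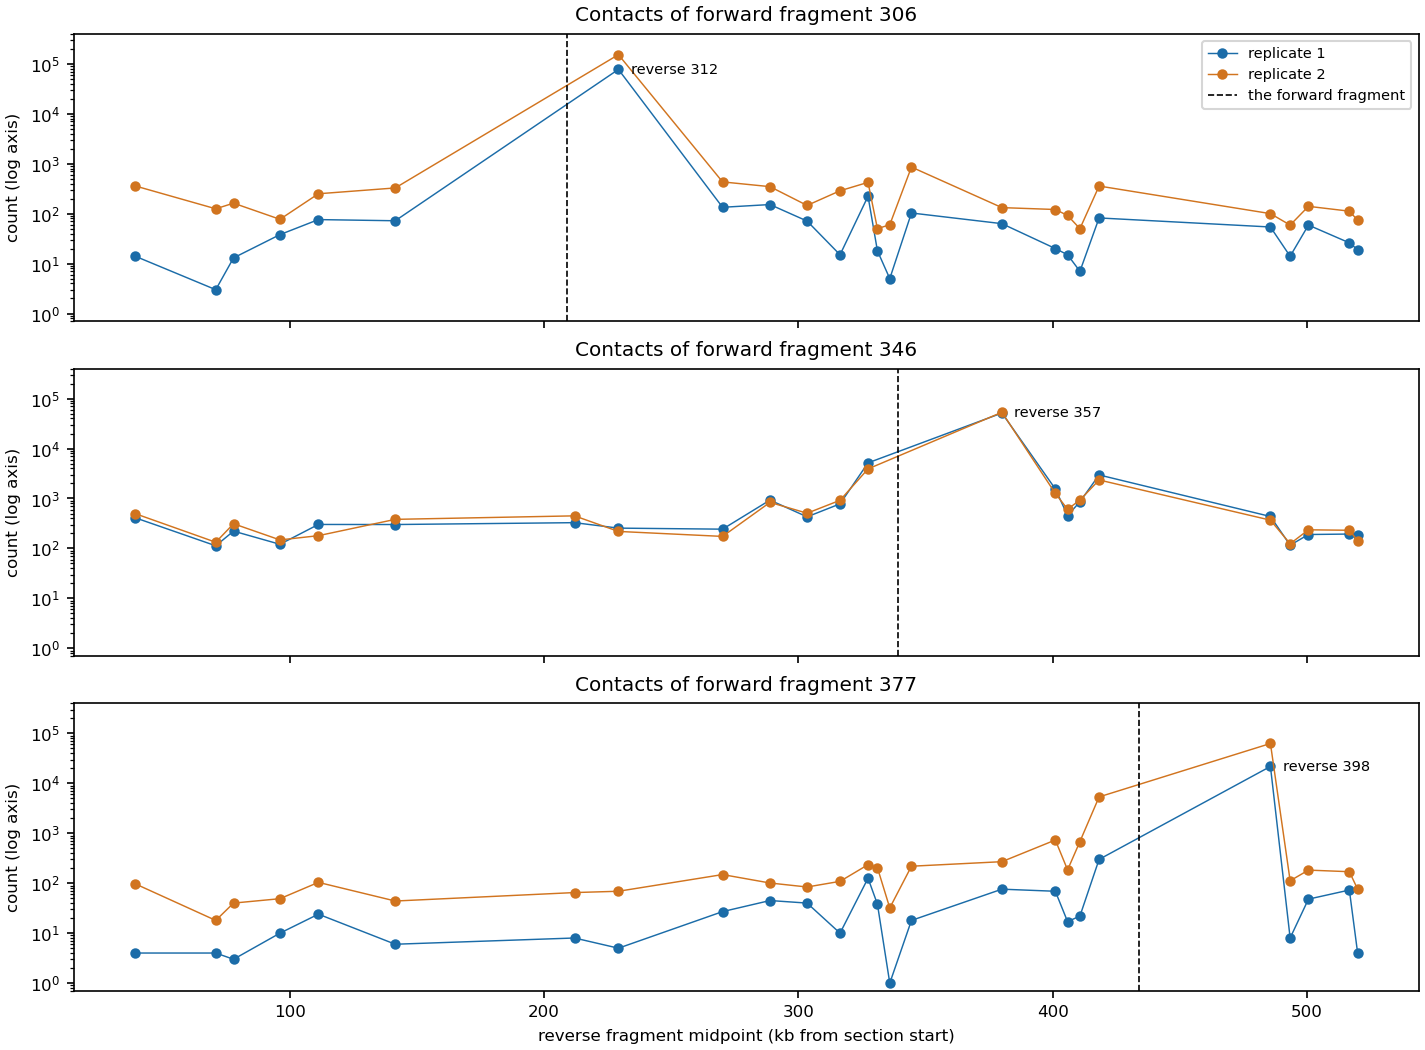
Counts of forward 306, forward 346 and forward 377 with each reverse fragment of the section at least 10 kb away, by the position of the reverse fragment in kb from the section's start, on a log axis. Blue is replicate 1, orange replicate 2, and the dashed line marks the forward fragment. Each profile has 1 point far above the rest in both replicates: reverse 312 at 77227 and 152580 counts, reverse 357 at 51457 and 53263, and reverse 398 at 21794 and 62772.

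The other high pairs mostly shared a small set of fragments. Of the 7 that complete the 10 highest, all ended on reverse 339 (chr12:115616163-115618624) or reverse 374 (chr12:115706727-115709849). Forward 334 (chr12:115594002-115605173) with reverse 339, 17.8 kb apart, had 7053 and 11385 counts, or 3.18 and 2.77. Forward 415 with reverse 339, 202 kb apart, had 989 and 1111 counts, or 3.41 and 2.54, and forward 272 with reverse 339, 254 kb apart, had 645 and 924 counts, or 3.12 and 2.57. Forward 334 and forward 415 with reverse 374, both about 110 kb away, had 2.81 and 2.96, and 2.68 and 2.25. After primer correction these 5 pairs were between -0.30 and 0.71 in both replicates. The other two of the 7, which join forward 346 and forward 283 to reverse 374, were at 1.04 and 0.36 and at 1.02 and 0.22. Forward 283 with reverse 260, 64.3 kb apart at the proximal end of the section, was outside the 10 highest by counts and the fourth highest after correction, with 948 and 3156 counts and corrected values of 2.10 and 1.85.

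**Figure D4:**
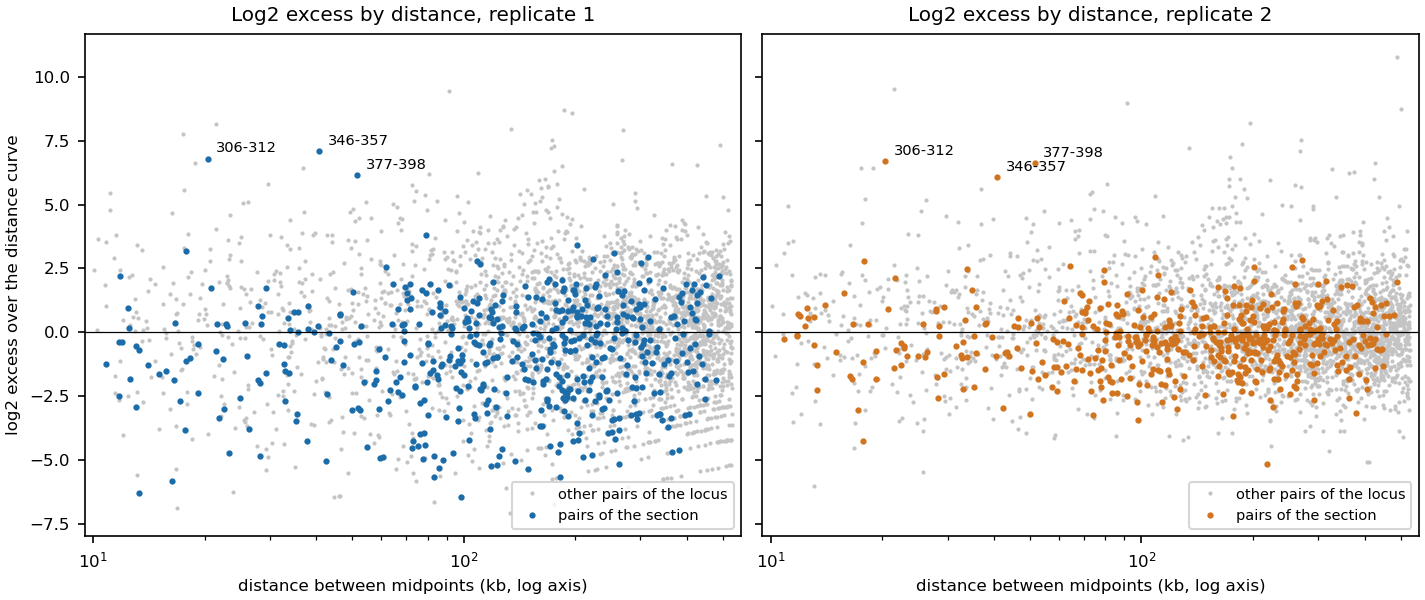
Log2 excess of each pair against the distance between fragment midpoints in kb (log axis), for replicate 1 (left) and replicate 2 (right). Coloured points are the section's 532 pairs and grey points the 2635 other pairs of the locus under 530 kb apart. The 3 labelled pairs lie between 6.08 and 7.09, above all other pairs of the section, the next of which by mean of the replicates is at 3.80 and 2.44.

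The lowest pairs were set apart more in replicate 1 than in replicate 2. Forward 377 with reverse 345, 98.1 kb apart, had 1 and 32 counts, a log2 excess of -6.46 and -3.44, and forward 338 with reverse 345, only 13.3 kb apart, had 12 and 449 counts, or -6.27 and -2.27. The replicates were close for forward 404 (chr12:115792871-115793993) with reverse 398, 17.7 kb apart, which had 54 and 87 counts, or -3.83 and -4.25. That pair was also the lowest of the section after primer correction, at -4.90 and -4.60, and forward 415 with reverse 398 was next, at -2.61 and -2.59. Reverse 398 thus had both the strong contact with forward 377 on one side and the lowest corrected contacts on the other. The 7 other pairs among the 10 lowest had 1 to 10 counts in replicate 1 and 11 to 106 in replicate 2. Reverse 345 took part in 3 of the 10, and forward 287, 295 and 377 and reverse 271 and 368 in 2 each.

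Fragments differed more from each other than the replicates did. Over its pairs in the section, the median log2 excess of a fragment ran from -4.48 to 1.46 in replicate 1. In replicate 2 it ran from -2.06 to 1.61. Of the 48 fragments 27 were below 0 in both, 11 above 0 in both and 10 of opposite sign. Like counts for fragments elsewhere are not given. The 5 highest were reverse 339 at 1.34 and 0.97, reverse 374 at 0.70 and 1.61, forward 415 at 1.46 and 0.81, forward 334 at 1.10 and 0.82, and forward 346 at 1.22 and 0.28. Each of the first 4 had 8 pairs at or above 1 in both replicates and 0 at or below -1. The 5 lowest were reverse 345 (chr12:115623606-115628290) at -4.48 and -1.64, forward 338 (chr12:115609122-115616162) at -2.68 and -1.69, forward 377 at -2.95 and -1.30, reverse 368 (chr12:115694886-115696905) at -2.47 and -1.48, and reverse 413 (chr12:115809235-115810743) at -2.62 and -1.31. In the lowest, reverse 345, 16 of 19 pairs were at or below -1 in both.

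High and low fragments lay side by side. Reverse 345 touches forward 346 at 115628290, and forward 338 touches reverse 339 at 115616162, so that a fragment among the lowest and one among the highest meet at each of these HindIII sites. Across the 48 fragments the median had a Spearman rho of -0.05 with position and of 0.19 with fragment length, given as a description of fragments that share pairs. The medians of fragments thus showed no steady rise or fall along the section. Inside and outside levels went together: the median of a fragment over its pairs in the section and that over its pairs with fragments outside it had a rho of 0.93 over the 48 fragments. Terms for single fragments, added up, held 79.5% of the variance of log2 excess among the section's pairs in replicate 1 and 68.6% in replicate 2 (77.6% and 65.6% with allowance for the 47 terms). A term of a fragment holds the yield of its primer, how often it is in contact at all, and anything else its pairs share. That includes its number of copies in the cells, which was not measured, and the counts do not tell these parts apart.

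**Figure D5:**
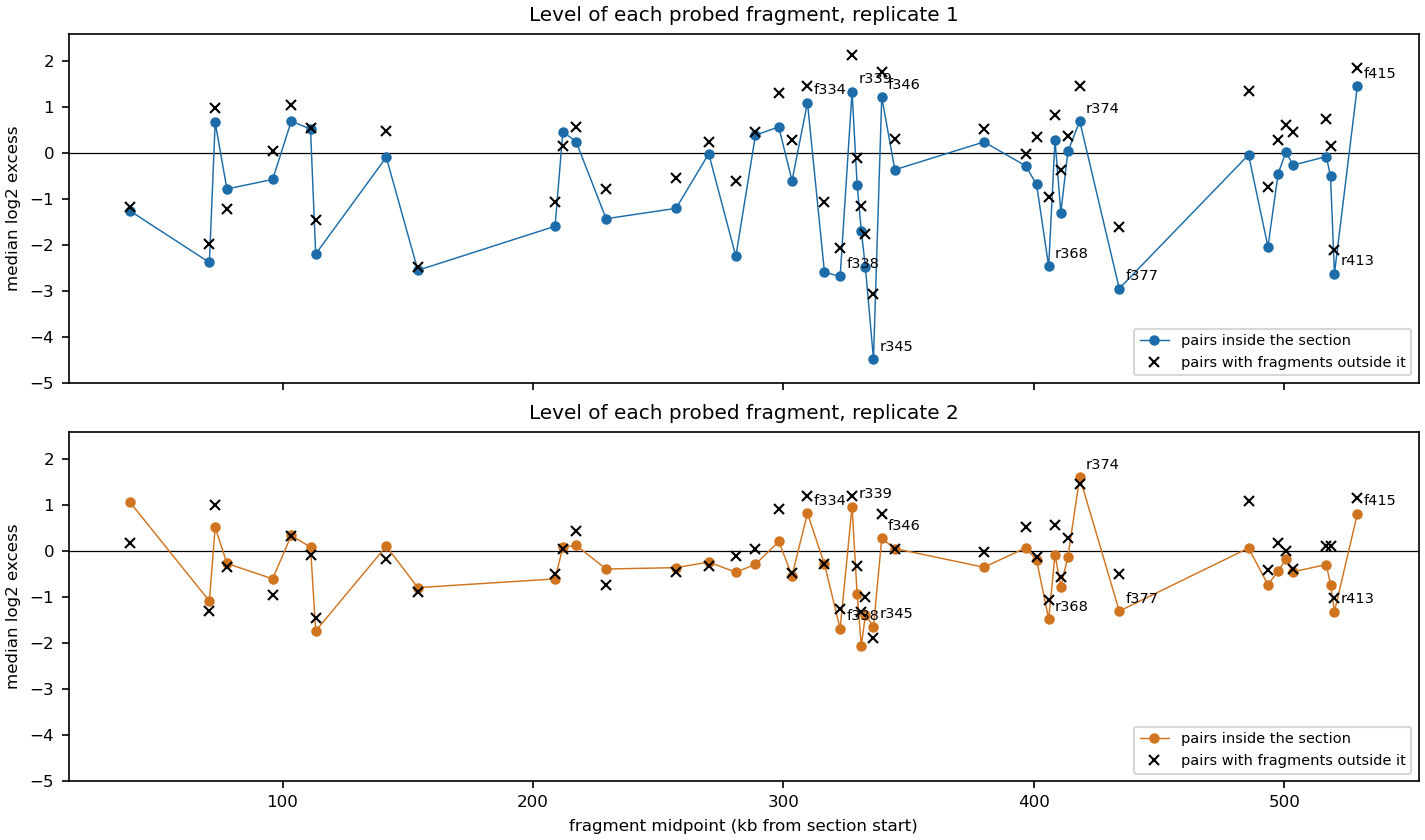
Median log2 excess of each of the 48 fragments by midpoint in kb from the section's start, in replicate 1 (top) and replicate 2 (bottom). Filled points are medians over pairs inside the section, crosses those over pairs with fragments outside it, and f and r with a number mark the 5 highest and 5 lowest forward and reverse fragments. Neighbouring fragments range from high to low in both replicates, for example r345 at -4.48 and -1.64 beside f346 at 1.22 and 0.28, and crosses and points follow each other.

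Taken over all distances, most fragments had a lower median inside the section than with the rest of the locus. Of the 48 fragments 32 had a lower median inside than outside in both replicates, 2 a higher one in both and 14 differed in sign. Like counts for fragments of other windows are not given, so these do not set the section apart. The median of the difference was -0.60 in replicate 1 and -0.29 in replicate 2. Reverse 398 showed the widest mean difference, with -0.04 and 0.07 inside and 1.36 and 1.09 outside. Limited to 530 kb, the 197 pairs that join the section to fragments before it had a median of -0.63 and -0.21, and the 346 that join it to fragments beyond it had -0.86 and -0.33. The section's own -0.64 and -0.32 lie below the first of these in both replicates and above the second in both, so up to 530 kb its inner contacts were not the lowest.

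Correction for primers took away most of the shortfall. Each value was lowered by a term for its forward and a term for its reverse fragment, found as alternating medians over all pairs of that fragment in the locus. The section's median was then -0.17 in replicate 1 and 0.00 in replicate 2, and its difference from pairs elsewhere at the same distances was -0.11 ± 0.03 (SD, n = 2), or 0.911 and 0.937 times their level. A remainder was seen at 10 to 50 kb, where the section was lower by 0.39 and by 0.33, and at 50 to 100 kb, with -0.18 and -0.13. Between 100 and 200 kb the difference was -0.01 and 0.00, at 200 to 300 kb -0.11 and -0.13, and at 300 to 530 kb it had opposite signs, -0.13 and 0.03. With the terms taken only from pairs that leave the section, the difference was -0.18 ± 0.12. Because the section's pairs take part in the terms, correction over all pairs also takes up part of any difference that all its fragments share, so the corrected and uncorrected values are given together.

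After correction the section had a smaller share of outlying pairs than the rest of the locus in both directions. At or above 1 in both replicates were 8 pairs (1.5%), against 5.73% of all pairs and 9.79% of those elsewhere under 530 kb, and at or below -1 were 16 (3.01%), against 4.19% and 6.72%. The interquartile range of corrected values was 0.97 and 0.73 in the section and 1.35 and 1.10 elsewhere under 530 kb. Before correction it was 2.82 and 1.48, against 3.14 and 2.13. The section's corrected values were thus more alike than those elsewhere in each replicate, and this difference was not tested. The 3 pairs named above stood at 9.14 and 7.92, 4.99 and 5.49, and 7.07 and 6.71.

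Contacts across the whole section had a higher mean log2 excess than those within its first and middle parts. Cut into 3 equal stretches with 10, 20 and 18 fragments, the section had medians of -1.82 and -0.60 within the first stretch (19 pairs), -0.99 and -0.46 within the middle one (81 pairs) and -0.43 and -0.38 within the last (64 pairs). The 88 pairs that join the first to the last stretch, at a median distance of 360 kb, had -0.45 and -0.26, a mean of -0.35 ± 0.14 (SD, n = 2), and median counts of 39.5 and 97. Against the last stretch their order turned between the replicates, and the means, -0.35 and -0.41, differed by less than the spread between replicates. After primer correction these outer pairs were at 0.04 and 0.18, so the sign of their mean changed, while pairs within the last stretch were the lowest at -0.65 and -0.38. Within the first stretch the corrected values were -0.30 and 0.19, within the middle one -0.26 and -0.03, and between the middle and last -0.30 and -0.08. Pairs that join the first and middle stretches were at 0.00 and 0.17. The last stretch, next to the distal Ighv1 genes, was therefore the one that stayed below 0 in both replicates by the widest margin once primers were corrected.

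After primer correction contacts over single points were lowest near the distal end. For each gap between neighbouring probed fragments, a median was taken over those of the section's pairs that reach across it from at most 250 kb on either side. Corrected values were near 0 or above around the gap between forward 295 and forward 306 (0.00 and 0.20, 138 pairs). They were -0.27 and -0.22 at the gap between forward 377 and reverse 398 (125 pairs) and -0.46 and -0.26 between reverse 398 and reverse 401 (104 pairs). Neighbouring gaps share most of their pairs, so these values are not independent. Before correction the lowest mean was instead near the proximal end, over the gap between reverse 274 and reverse 280 (-1.80 and -0.10, 48 pairs), with the replicates far apart. The 3 gaps above had -0.78 and -0.22, -0.29 and -0.31, and -0.50 and -0.42.

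The replicates ranked the section's pairs alike before correction and less so after it. Log2 excess had a Spearman rho of 0.74 over the 532 pairs, beside 0.76 over the other 9883 pairs, and corrected values had 0.39, beside 0.47. Pairs share fragments, so these are descriptions. In 300 pairs (56.4%) the replicates lay within 1 log2 unit of each other, against 52.7% of all pairs. They were over 2 units apart in 89 pairs, of which 88 were higher in replicate 2. Like counts over all pairs are not given, so these do not set the section apart. Over all pairs of the section replicate 2 minus replicate 1 had a median of 0.19, against -0.15 over the locus. The low pairs were thus lower in replicate 1, the library with the smaller total. That was also so over the locus: the lower quartile was -1.58 and -1.01 over all pairs, and -2.23 and -1.11 in the section. With replicate 2 thinned to the total of replicate 1, the section's level was -0.48 and 128 pairs were at or below -1 in both, so that difference in total moved neither value by much. Thinning by the total does not make the counts at 10 kb and beyond equal, and their part in the difference between replicates was not tested.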

How the data were processed

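The deposited tables hold raw counts, whole numbers of sequenced junctions per forward and reverse primer pair, 1 table for each of 2 replicates. Per the file headers they are my5C matrices after a step named transpurge, with fragments in mm9. Per the submitters' processing notes Novoalign and mm9 were used, and versions are not given in the sources used here. Values were not normalized or pooled in these tables.

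Midpoint distances of at least 10 kb were kept. Log2 excess is log2(count + 1) minus a robust lowess (span 0.3, 3 robust rounds) on log10 distance over all pairs. Calls used a lowess mean curve of counts (span 0.3), z from a lowess of squared residuals, a Weibull fit with upper-tail p and Benjamini-Hochberg adjustment over all pairs, at 0.01 in both replicates. Primer terms were alternating medians in 50 rounds, and for calls ratios were divided by primer means in 50 rounds. With 1 group there was no contrast for a count model. The section and pairs elsewhere were compared within each replicate, with an exact sign-flip test. Named pairs are the 10 highest and 10 lowest by mean log2 excess, named fragments the 5 highest and 5 lowest by median. Neighbouring pairs and other fragments named beside these were chosen with values in view. The section, the limits and the rules were chosen with earlier results of these data known. The alternatives are in the closing section. The scripts were tested on simulated data. No genome sequence or mm9 gene annotation was used here. The lowess came from statsmodels 0.14.6, the Weibull fit from SciPy 1.17.1, and the plots from matplotlib 3.10.9, run with NumPy 2.4.6 under Python 3.11.15.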

Additional observations from a re-analysis of the deposited data

Results flagged for a closer look

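The pairs of the section under 10 kb apart were outside the comparisons and held most of its counts. These 40 pairs, at 923973 counts in replicate 1 and 1793183 in replicate 2, held 78.3% of the section's counts at all distances in replicate 1 and 78.2% in replicate 2. The share was nearly equal in the replicates.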

How the results depend on the processing

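Beside leaving out a replicate, 76 alternative values were computed. For means of the 2 replicates 27 of 37 kept their direction and moved by less than the SD, for counts of pairs 20 of 29 stayed within 1.5 times, and for the replicate rho 7 of 10 moved by less than 0.05. Under these the mean level of the replicates stayed below 0 and their mean difference from elsewhere too, although the corrected level of replicate 2 alone was 0.00.

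Correction for primers moved most of what was reported: the level to -0.085, the difference from elsewhere to -0.11, the low pairs to 16, the high pairs to 8, the calls to 2, the replicate rho to 0.39, and the contacts between the outer stretches to 0.11, which reversed their sign. With primer terms taken only from pairs that leave the section these were -0.16, -0.18, 20 and 7 pairs, 0.41 and 0.10, again reversed. A mean curve of counts, which lies above most pairs by its construction, gave a level of -2.63, 437 low and 3 high pairs and -2.19 for the outer stretches. A span of 0.6 gave 1 call. With 10 or more counts required the slope was -0.73 and rho 0.69 over fewer pairs. With 50 kb taken off each end the slope was -0.91 and 22 pairs were high, of 327. In single replicates the calls ranged from 0 to 2, the low pairs from 147 to 239 and the high pairs from 64 to 89, since 1 replicate then had to pass. The level ranged from -0.64 to -0.32 and the difference from -0.99 to -0.50. These ranges say nothing of stability, since a single value out of 2 always lies within the SD of their mean. No paired analysis was possible because there is 1 group, and regions were compared within each replicate as given in the report. In replicate 1, 15 pairs had 3 or fewer counts, so their order is not resolved.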
